A study of Caenorhabditis elegans with 24 samples.

Results

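The comparison described here sets the small RNA recovered with ALG-1 carrying the V254I change against the small RNA recovered by the same precipitation from animals that lack ALG-1. It rests on 4 of the 24 libraries of the series, 2 V254I IP and 2 null IP, and on all 437 mature microRNA (miRNA) names of the deposited count table. The libraries are those whose columns carry the V254I IP and null IP names, and no measured value enters that rule. The V254I animals carry allele zen25 of alg-1, one of 4 alleles made to model human AGO1 changes seen in neurodevelopmental disorders. The null animals carry tm492. Wild-type N2 animals (WT) are used below as a reference. All groups were whole Caenorhabditis elegans fed for 45 h at 20 °C after hatching without food. No label states that libraries 1 and 2 of a group are independent cultures, and p-values here reflect only how far such paired libraries differ, which may be technical.

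ALG-1 and ALG-2 are the main Argonaute proteins of the C. elegans miRNA pathway. A miRNA hairpin is cut into a short duplex, an Argonaute keeps the guide arm and the passenger arm is discarded, and the guide then finds target mRNAs through its seed, the bases near its 5′ end. Guides that share a seed form a family. An IP from a null animal holds what the beads, the antibody and any other protein carry along, and it is the usual background for an Argonaute precipitation. Read counts give the make-up of that background and not its amount. The yields of the precipitations are not known, so every level below is a share of the miRNA reads of its own library, in reads per 1000000 miRNA reads (RPM), and an equal share does not mean an equal amount of RNA.

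The null IP libraries held fewer kinds of miRNA than the V254I IP libraries. Totals were 12743792 and 12129864 miRNA reads in V254I IP and 9889892 and 4667753 in null IP. Reads were found for 322 and 306 miRNAs in V254I IP and for 153 and 232 in null IP. At an equal depth of 3940437 reads the expected numbers were 289 and 280 in V254I IP (mean 284 ± 6.82, SD, n = 2) and 151 and 230 in null IP (mean 191 ± 55.5). The groups did not overlap, which gave the smallest p that an exact two-sided permutation test of 2 against 2 allows, 0.33. At 10 RPM or more the libraries were alike, with 136 and 132 miRNAs in V254I IP and 131 and 135 in null IP.

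Null IP library 1 stood apart below that level. It had 22 miRNAs between 0 and 10 RPM, against 97 in null IP library 2 and 186 and 174 in V254I IP, and only 3 miRNAs with 1 to 9 reads, against 64 in null IP library 2. Of the 284 miRNAs at 0 in null IP library 1, 83 had reads in null IP library 2, up to 58.1 RPM for miR-231-3p. Conversely 4 miRNAs were at 0 in null IP library 2 only, and the highest of them reached 7.79 RPM in null IP library 1. A 0 in null IP library 1 is thus no measure of a low level, and results are given with and without that library where it changes them.

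**Figure D1:**
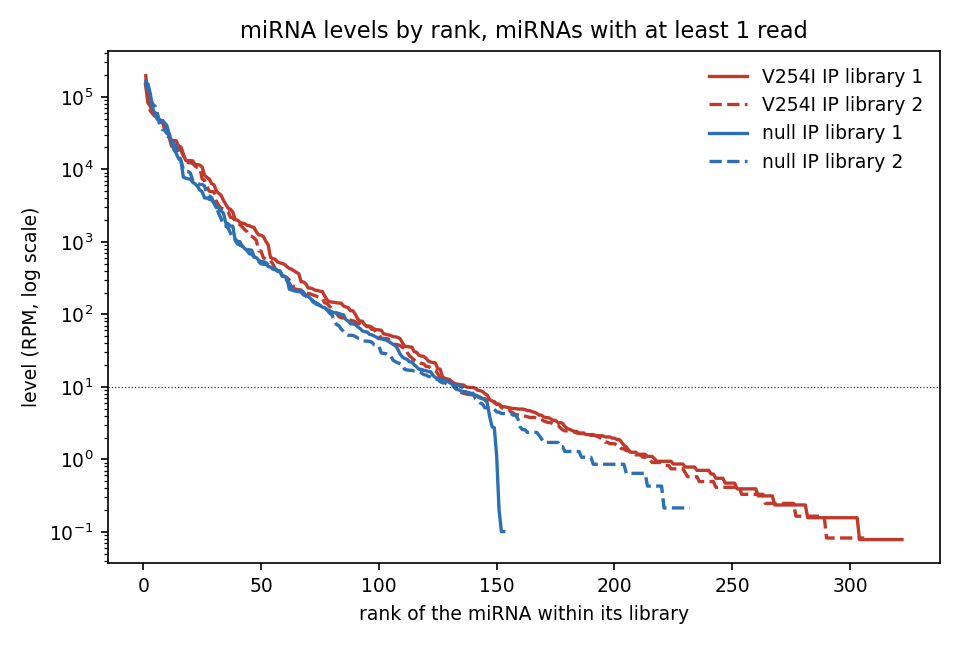
Level of each miRNA (RPM, log scale) against its rank within its library, for miRNAs with at least 1 read, in the V254I IP libraries (red) and the null IP libraries (blue). The 4 curves run together down to the dotted line at 10 RPM; below it null IP library 1 ends abruptly at 153 miRNAs and null IP library 2 at 232, while the V254I IP curves go on to 322 and 306.

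The 5 most abundant miRNAs of each precipitation had 4 in common, miR-228-5p, miR-1-3p, miR-48-5p and miR-80-3p, in a different order. In V254I IP the glial miRNA miR-228-5p led, at 143188 and 205862 RPM, followed by miR-1-3p of muscle. miR-81-3p, also among the 5 most abundant there, was at 61416 and 50651 RPM against 23599 and 35593 RPM in null IP (0.42 ± 0.30, adjusted p = 0.266; -0.40 without null IP library 1; called with library totals as the scaling, 0.92, adjusted p = 0.00867, and without null IP library 2, 0.98, adjusted p = 0.00826). In null IP miR-228-5p was at 47790 and 73926 RPM, and the leading miRNAs were miR-80-3p of the miR-58 (bantam) family and miR-48-5p of the let-7 family. Over the 160 miRNAs with a mean of at least 10 RPM in IP libraries, log2 levels of a V254I IP and a null IP library correlated at r = 0.832 to 0.918, those of a V254I IP and a WT IP library at 0.988 to 0.994, and the 2 null IP libraries with each other at 0.949. These coefficients are across miRNAs of whole libraries and are a description only.

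Tested miRNA by miRNA, 126 of 269 (46.8%) differed between V254I IP and null IP (edgeR quasi-likelihood test on all 12 IP libraries, Benjamini-Hochberg adjusted p under 0.05). Higher in V254I IP were 76 (28.3%) and lower 50 (18.6%), around a median log2 difference over all miRNAs tested of 0.99. The calls that held in all 4 fits without one of the compared libraries numbered 51 (19%), 21 higher and 30 lower. The split depended on the null libraries: it was 28 higher to 64 lower without null IP library 1, 130 to 49 without null IP library 2, 30 to 31 without V254I IP library 1 and 46 to 36 without V254I IP library 2. With only the 4 compared libraries in the fit, 12 were called.

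Calls were then counted by abundance. Among 114 miRNAs under 10 RPM in both groups 34 were higher and 4 lower. Of the 34, 33 had 0 reads in null IP library 1, as had 98 of the 114. Between 10 and 100 RPM 11 of 60 were higher and 24 lower. Between 100 and 1000 RPM the counts were 15 higher and 10 lower of 43, and over 1000 RPM 16 higher and 12 lower of 52, with no 0 in either null library in the last class. The higher calls that held without any one library were 8 of 34, 7 of 11, 3 of 15 and 3 of 16 from the lowest to the highest class, and the lower calls 0 of 4, 14 of 24, 7 of 10 and 9 of 12.

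**Figure D2:**
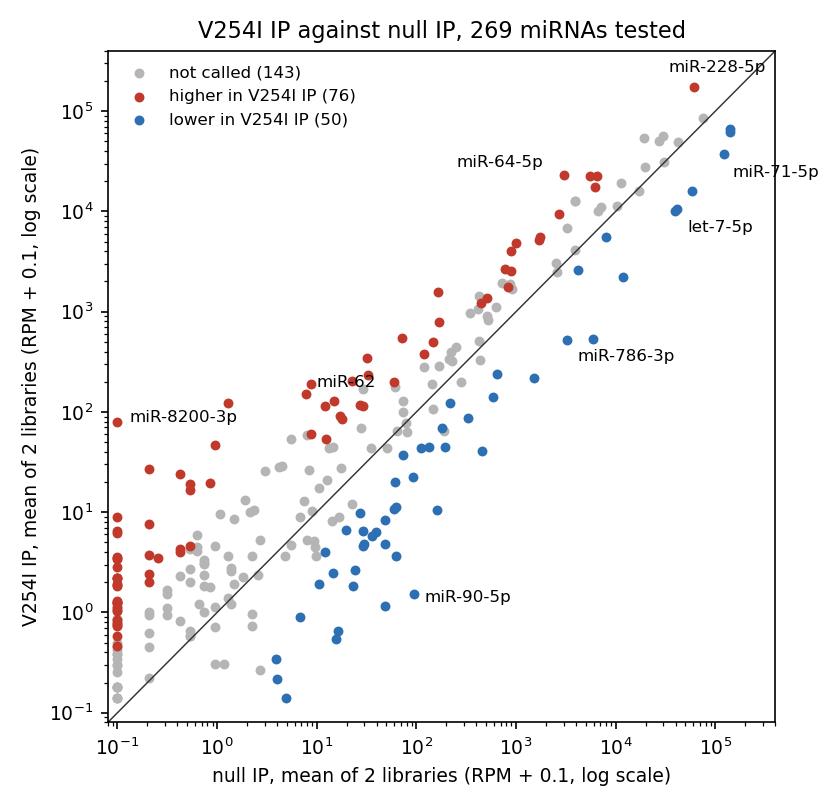
Mean level in V254I IP against mean level in null IP (RPM + 0.1, log scales, 2 libraries each) for the 269 miRNAs tested, with the line of equal levels. The 76 miRNAs called higher in V254I IP (red) include a column at the left edge with no reads in null IP, and the 50 called lower (blue) include abundant guides such as let-7-5p and miR-71-5p.

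Of the 12 higher miRNAs with the largest called differences among those with at least 50 RPM in V254I IP and no overlap between groups, miR-8200-3p alone had no read in either null IP library. Over all levels 47 miRNAs tested had none there, and 27 of them were called higher. Such miRNAs could be called only higher, so that count is not comparable with the 28.3% higher of all miRNAs tested. miR-8200-3p was at 69.1 and 89.2 RPM in V254I IP. Against 3 reads in null IP library 2 alone, the count that a 0 allows for counting error, V254I IP was at least 123-fold higher (edgeR adjusted p = 0.000167). The miRNA was not missing from null lysate, where it stood at 13.6 and 7.55 RPM, beside 49.6 and 37.1 RPM in V254I lysate. In WT IP, which shares the null libraries as its background, it was at 65.4 and 78.0 RPM.

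Both arms of the mir-788 hairpin were also higher in V254I IP. miR-788-3p was at 123 and 120 RPM in V254I IP and at 0 and 2.36 RPM in null IP (6.34 ± 1.21 on the log2 scale, SE, adjusted p = 0.00287). miR-788-5p was at 488 and 201 RPM against 48.3 and 15.9 RPM (3.02 ± 0.64, adjusted p = 0.00366). A lack of overlap between groups was part of the rule that picked both arms. Both calls held without any one library. In lysate miR-788-5p differed too (170.6 and 45.8 RPM in V254I, 10.1 and 6.63 RPM in null; log2 difference 3.77, adjusted p = 0.0114).

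Among more abundant guides, miR-76-3p stood at 1688 and 1478 RPM in V254I IP and at 115 and 215 RPM in null IP (2.75 ± 0.45, adjusted p = 0.00127). miR-50-5p was at 4659 and 4940 RPM against 885 and 1092 RPM (1.81 ± 0.31). miR-1821-3p, at 60.3 and 61.1 RPM, was at 9.10 and 8.36 RPM in null IP (2.36 ± 0.50). These 3 held their calls without any one library. The groups did not overlap, which the rule for naming required of miR-76-3p and miR-1821-3p but not of miR-50-5p. Calls that did not hold throughout were those of miR-355-5p (2.72 ± 0.79; adjusted p = 0.0980 without V254I IP library 1), miR-785-3p (2.64 ± 0.85; adjusted p = 0.146 without null IP library 1, 0.121 without V254I IP library 1 and 0.0902 without V254I IP library 2) and miR-63-5p, which was at 0 and 17.4 RPM in null IP (adjusted p = 0.184 without V254I IP library 1 and 0.0902 without V254I IP library 2).

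Mirtrons are miRNAs cut from short introns by splicing. Of 3 tested, 2 were higher in V254I IP, with a median log2 difference of 3.75 for the list against 0.99 for all miRNAs tested, of which 28.3% were higher. miR-1020-3p was at 21.3 and 16.8 RPM against 0 and 0.857 RPM in null IP, and held its call without any one library. miR-62 was at 230.1 and 74.2 RPM against 3.94 and 11.4 RPM (3.75 ± 1.06, adjusted p = 0.0160), and lost its call without null IP library 1 (adjusted p = 0.102) or V254I IP library 1 (adjusted p = 0.163). miR-1018 was at 3.22 and 5.77 RPM in V254I IP and did not pass (adjusted p = 0.191).

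**Figure D3:**
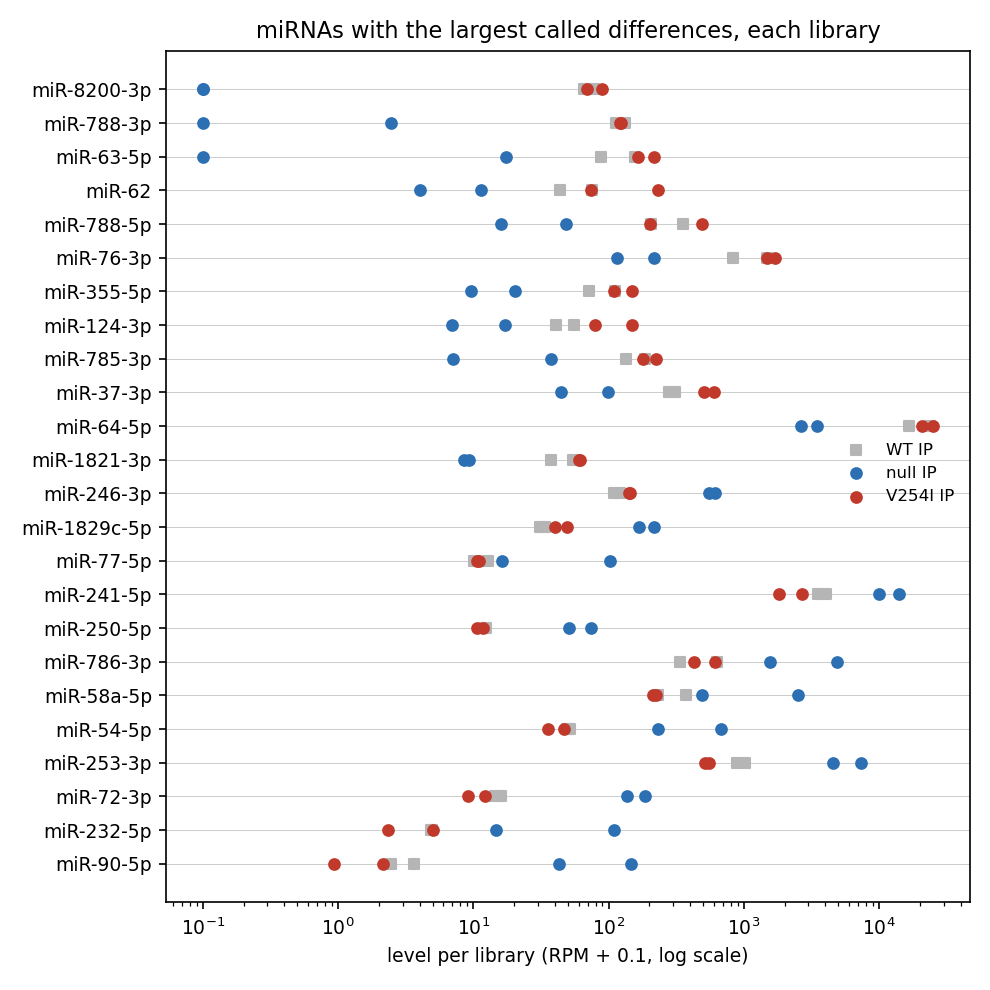
Level in each library (RPM + 0.1, log scale) of the 12 higher and 12 lower miRNAs with the largest called differences, among those with a mean of at least 50 RPM in the higher group, whose 2 V254I IP libraries (red) and 2 null IP libraries (blue) did not overlap, with the WT IP libraries (grey squares) beside them. miR-8200-3p sits at the left edge in both null IP libraries, and miR-90-5p, miR-232-5p and miR-72-3p lie furthest to the right in null IP relative to V254I IP.

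The miR-63/64 family was the seed family with most members higher in V254I IP, 5 of 5 (median log2 difference 1.66, against 28.3% of all miRNAs called higher and a median of 0.99). Together the family held 7.62% and 5.92% of reads in V254I IP, 1.45% and 1.73% in null IP and 7.59% and 5.30% in WT IP. miR-64-5p went from 2662 and 3456 RPM in null IP to 25111 and 20776 RPM in V254I IP (2.42 ± 0.31, adjusted p = 0.000355), and its call alone in the family held without any one library. In lysate miR-64-5p was higher too, at 13589 and 8006 RPM in V254I and 3089 and 1275 RPM in null (2.40, adjusted p = 0.0358), while the other 4 members did not pass there (adjusted p from 0.165 to 0.907).

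The other members had smaller differences. miR-65-5p (1.56 ± 0.27) lost its call without V254I IP library 1 (adjusted p = 0.0611). Calls of miR-63-3p (1.66 ± 0.36), miR-66-5p (1.00 ± 0.30) and miR-229-5p (1.71 ± 0.42) were lost without null IP library 1 (adjusted p = 0.0780, 0.482 and 0.160) and without V254I IP library 1 (adjusted p = 0.103, 0.413 and 0.235). mir-64, mir-65, mir-66 and mir-229 are neighbouring genes on chromosome III in RefSeq's WBcel235 annotation. The opposite arm of mir-229, miR-229-3p, went the other way and was called lower (-1.70 on the log2 scale). It had 71.6 and 67.6 RPM in V254I IP against 309.7 and 53.3 RPM in null IP, so the groups overlapped.

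The let-7 family, which times the larval stages, was the family with most members lower in V254I IP, 4 of 7 with none higher (median log2 difference -1.53; 18.6% of all miRNAs tested were lower). It made up 9.54% and 8.38% of reads in V254I IP, 26.4% and 20.2% in null IP and 11.1% and 10.5% in WT IP. In lysate the family's shares overlapped, at 9.18% and 5.46% in V254I and 14.9% and 3.20% in null.

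let-7-5p itself, needed for the step from larva to adult, was at 10720 and 10424 RPM in V254I IP and 48674 and 34652 RPM in null IP (-2.40 ± 0.22, adjusted p = 0.000106). miR-48-5p, miR-84-5p and miR-241-5p, which act earlier in larval life, differed by -1.53 ± 0.21, -2.34 ± 0.46 and -2.82 ± 0.37. All 4 held their calls without any one library. The remaining members miR-793 (0.76 ± 0.44), miR-794-5p (0.26 ± 0.54) and miR-795-5p (-0.86 ± 0.35) did not pass. The same 4 guides set against null IP in WT IP gave -1.82 ± 0.22, -1.21 ± 0.21, -1.28 ± 0.44 and -1.88 ± 0.35 for let-7-5p, miR-48-5p, miR-84-5p and miR-241-5p.

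**Figure D4:**
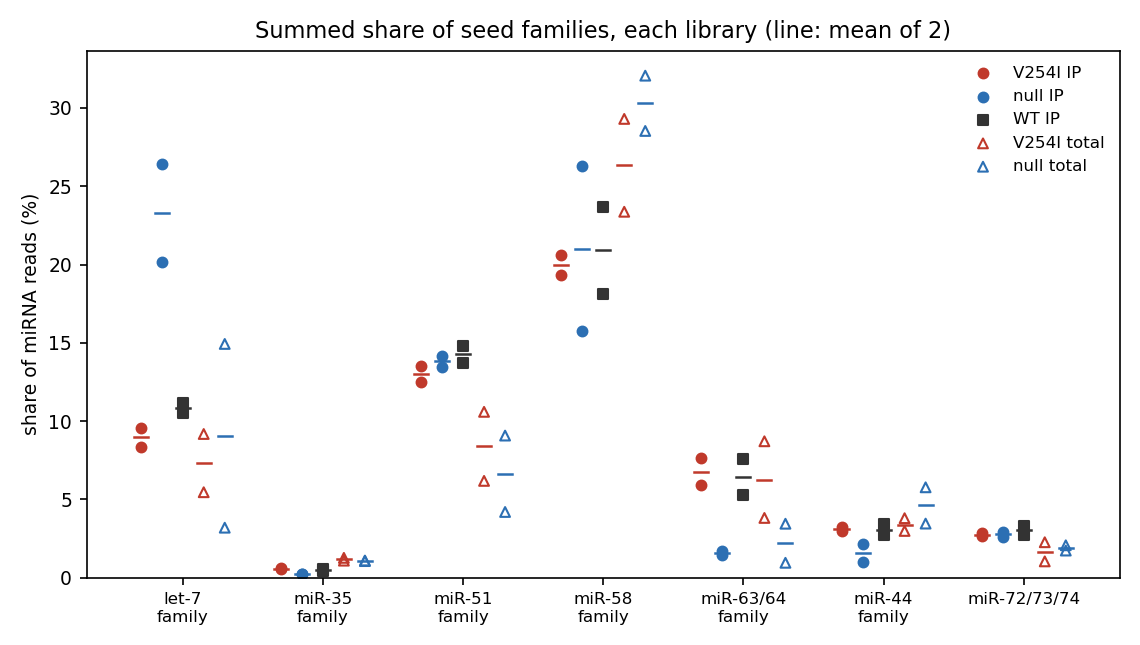
Summed share of miRNA reads (%) of 7 groups of guides with related seeds in each library, with a line at the mean of 2: V254I IP and null IP (filled circles), WT IP (squares), and V254I and null lysate (open triangles). The let-7 family lies at 20.2% and 26.4% in null IP, above all V254I IP, WT IP and lysate points shown, and the miR-63/64 family lies below 2% in null IP.

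Members of the remaining families went separate ways. Of the miR-51 family, active from the embryo on, miR-51-5p was lower in V254I IP, at 13069 and 18698 RPM against 57771 and 59183 RPM (-2.32 ± 0.32, adjusted p = 0.000483), and 5 of 6 members were not called. The family's summed share was 12.5% and 13.5% of reads in V254I IP and 14.2% and 13.5% in null IP. Of the miR-58 family 1 of 4 was called, miR-80-3p, at 60565 and 63816 RPM against 109635 and 173715 RPM (-1.68 ± 0.40); without V254I IP library 1 its adjusted p was 0.0980.

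In the embryonic miR-35 family 3 of 8 members were higher, near the 28.3% of all miRNAs tested, and the median log2 difference of 0.96 was near the overall 0.99. miR-37-3p was at 503 and 599 RPM in V254I IP and 44.3 and 99.4 RPM in null IP (2.43 ± 0.47, adjusted p = 0.00294), and held its call without any one library. miR-42-3p (1.02 ± 0.33) and miR-35-3p (0.65 ± 0.23) lost theirs without null IP library 1 (adjusted p = 0.601 and 0.701), V254I IP library 1 (0.390 and 0.341) or V254I IP library 2 (0.0575 and 0.159), and miR-35-3p also without null IP library 2 (0.0599). lin-4-5p, the early larval timing miRNA, was at 6339 and 4878 RPM against 1836 and 1669 RPM (1.22 ± 0.33), and its call was lost without null IP library 1 (adjusted p = 0.209) or V254I IP library 1 (adjusted p = 0.184).

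Of the miR-44 family, miR-61-3p was lower (-1.01 ± 0.37, adjusted p = 0.0433), but not with library totals as the scaling (adjusted p = 0.194), without null IP library 2 (0.238), without V254I IP library 1 (0.150) or without V254I IP library 2 (0.165). miR-44-3p and miR-45-3p, nearly equal in every compared library, were at 13189 and 12325 RPM (miR-44-3p) in V254I IP and at 1646 and 6167 RPM in null IP, and did not pass (adjusted p = 0.121). No member was called in the miR-2 family (4 tested), miR-72/73/74 (3), the family of miR-238 and miR-239 (3) or the miR-75/79 pair (2).

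Of the tissue-restricted miRNAs 5 of 8 were higher in V254I IP and none lower, where 28.3% of all miRNAs tested were higher. The median log2 difference of the list, 1.18, was close to the 0.99 of all miRNAs tested, and none of the 5 held its call without any one library. They were miR-228-5p of glia (1.05 ± 0.34; adjusted p = 0.0290, and 0.613 without null IP library 1, 0.154 without V254I IP library 1 and 0.182 without V254I IP library 2), miR-124-3p of sensory neurons (2.70 ± 0.61; adjusted p = 0.102 without V254I IP library 1), miR-57-5p, miR-60-3p of the intestine and miR-244-5p. miR-1-3p of muscle, at 82142 and 89692 RPM in V254I IP and 69501 and 79410 RPM in null IP, did not pass (adjusted p = 0.616). Its fitted log2 difference was -0.25 ± 0.40 with TMM scaling, against the order of these RPM levels, and turned to 0.21 with library totals as the scaling and to 0.054 without null IP library 2. Whole animals were used, so fewer cells of a type and less RNA per cell cannot be told apart.

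On the stress and lifespan list 3 of 7 were lower and none higher, beside 18.6% lower and 28.3% higher of all miRNAs tested, and the median log2 difference of the list was 0.21. miR-71-5p, which extends lifespan, was at 36949 and 37168 RPM in V254I IP and 150167 and 93512 RPM in null IP (-2.12 ± 0.26, adjusted p = 0.000355). miR-246-3p, whose level has been linked to lifespan, was at 143 and 141 RPM against 614 and 554 RPM (-2.48 ± 0.34, adjusted p = 0.000483). Both held without any one library. miR-85-3p was the third (-1.30 ± 0.44, adjusted p = 0.0345). miR-243-3p, which is loaded by the Argonaute RDE-1, was at 126 and 130 RPM in V254I IP and 98.3 and 49.5 RPM in null IP and did not pass (0.41 ± 0.41, adjusted p = 0.424).

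Outside the lists, the guide miR-253-3p had the strongest lower call over 1000 RPM. It was at 513 and 553 RPM in V254I IP and at 7378 and 4570 RPM in null IP (-3.89 ± 0.41, adjusted p = 0.000167). miR-786-3p, which acts in the intestine to set the defecation rhythm, was at 611 and 426 RPM against 4895 and 1547 RPM (-3.0 ± 0.48). Its neighbour mir-240 gave a guide that was also lower, miR-240-3p (-1.84 on the log2 scale). miR-253-3p and miR-786-3p were named by a rule that asked for no overlap between the groups.

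Passenger arms, here the arm of each hairpin with fewer reads over the 12 lysate libraries, were 26 lower and 23 higher of 104 tested, and guides 20 lower and 47 higher of 146, beside 18.6% lower and 28.3% higher of all miRNAs tested. Counting those that held without any one library, 16 passengers were lower and 5 higher, against 13 guides in each direction. The 12 lower miRNAs picked for the largest called differences included both passengers and guides. Of all 50 lower calls, 26 were passengers, as were 104 of all 269 miRNAs tested. miR-90-5p was at 2.04 and 0.824 RPM in V254I IP and 147 and 42.8 RPM in null IP (-6.42 ± 0.83, adjusted p = 0.000355), and miR-72-3p at 8.95 and 12.1 RPM against 185 and 136 RPM (-4.34 ± 0.48, adjusted p = 0.000167). miR-232-5p (-4.44 ± 0.87), miR-54-5p (-3.81 ± 0.60), miR-58a-5p (-3.10 ± 0.55), miR-250-5p (-2.90 ± 0.55) and miR-77-5p (-2.79 ± 0.61) were lower passengers as well, and the guide miR-1829c-5p was lower by a like amount (-2.55 ± 0.49).

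For several of these arms the 2 null IP libraries were far apart, while both lay above V254I IP, as the rule for naming them required. miR-58a-5p was at 2506 and 488 RPM in null IP, and at 224 and 211 RPM in V254I IP. miR-232-5p was at 109 and 14.6 RPM in null IP, and at 4.94 and 2.23 RPM in V254I IP. The summed passenger share did not separate the groups: it was 0.349% and 0.235% of reads in V254I IP (95% exact binomial intervals 0.346% to 0.352% and 0.233% to 0.238%) and 0.635% and 0.258% in null IP (0.630% to 0.640% and 0.253% to 0.263%; exact permutation p = 0.667). Intervals and floors cover counting error only, since PCR reads are not independent molecules. The sum includes miR-229-5p and miR-788-5p, which had fewer reads than their partner arms over the lysate libraries but more in both V254I IP libraries. miR-229-5p was at 1019 and 562 RPM in V254I IP, against 123 and 212 RPM in null IP. miR-788-5p was at 488 and 201 RPM against 48.3 and 15.9 RPM. Without null IP library 1 the difference turned, to 0.0344 percentage points higher in V254I IP. Both of these arms add to the V254I IP share in that difference, as miR-58a-5p adds to the null IP share. In lysate the passenger share was 0.390% and 0.356% in V254I and 1.01% and 1.30% in null, without overlap, and the passenger arms had a median log2 difference of -1.19 there.

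Within hairpins, where the scaling of libraries drops out, the passenger to guide ratio differed in 24 of 83 (28.9%; limma on log2 ratios of counts plus 0.5). It was lower in V254I IP in 14 (16.9%) and higher in 10 (12%). The miR-90 passenger was at 0.00610% and 0.00284% of its guide in V254I IP and at 0.365% and 0.206% in null IP (-5.99 ± 0.66, adjusted p = 0.000475), and the miR-72 passenger at 0.0767% and 0.109% against 2.52% and 1.02% (-4.13 ± 0.59, adjusted p = 0.00202). Those 2 held without any one library, and no higher ratio did. The number of calls was 2 without V254I IP library 1, 6 without V254I IP library 2 and 52 without null IP library 2.

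The passengers of miR-58a, miR-54, miR-82 and miR-44, also called lower in this ratio, had 255 to 24786 reads in null IP library 1, and a higher percentage of the guide there than in null IP library 2. The miR-58a passenger was at 33.2% and 1.56% of its guide in null IP and at 0.401% and 0.410% in V254I IP (-4.15 ± 1.29, adjusted p = 0.0364). The miR-54 passenger was at 18.0% and 5.72% against 0.706% and 1.46% (-3.32 ± 0.70, adjusted p = 0.0113). The miR-82 (-5.42 ± 1.13) and miR-44 (-3.84 ± 0.99) passengers were lower as well.

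Other called differences touched counts of 0 in null IP library 1. For miR-67 (-9.0 ± 2.60) and miR-36 (-8.97 ± 2.37) the guide had 0 reads there, while for miR-232 (-5.75 ± 1.19) the passenger stood at 624% of the guide, against 39.8% in null IP library 2 and 3.37% and 2.49% in V254I IP. Among ratios called higher, the 5 largest, those of miR-791 (5.68 ± 1.28), miR-243 (5.51 ± 1.51), miR-795 (5.32 ± 1.59), miR-246 (4.68 ± 1.18) and miR-49 (4.27 ± 0.85), had 0 passenger reads in null IP library 1. For miR-791 the passenger was at 19.6% and 20.1% of the guide in V254I IP and at 1.79% in null IP library 2. These fitted values depend on the 0.5 added to counts wherever a count is 0.

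The mir-229 hairpin shows how far the choice of arm depends on the sample. miR-229-3p had more reads in lysate, with 2644 and 4848 RPM in V254I beside 256.5 and 150.5 RPM for miR-229-5p, so miR-229-5p counts as the passenger here. In V254I IP the order was turned, and miR-229-5p stood at 1424% and 831% of miR-229-3p, against 39.9% and 397% in null IP (3.11 ± 0.92, adjusted p = 0.0330). In WT IP miR-229-5p stood at 651% and 1018%. The order was thus turned in WT IP and in null IP library 2 as well, and among these libraries null IP library 1 alone kept the lysate order.

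The lysates were compared to see which IP differences were already present before precipitation. V254I and null lysate differed in 35 of 303 miRNAs (11.6%), and over the 160 miRNAs with a mean of at least 10 RPM in IP libraries the log2 differences in IP and in lysate had the same sign in 119 (r = 0.628, across miRNAs, which share their libraries). Called in both were 23 of the 259 miRNAs tested in both, 11 higher in both and 12 lower in both. They included miR-64-5p, miR-785-3p, miR-788-5p and miR-8200-3p among those named above as higher, and miR-54-5p, miR-58a-5p, miR-72-3p, miR-77-5p, miR-90-5p and miR-246-3p among those lower. For let-7-5p, miR-48-5p and miR-71-5p the lysate differences were -0.32 (adjusted p = 0.875), -0.26 (0.888) and -0.18 (0.878).

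The difference in IP was then tested against that in lysate, as a difference of IP to total ratios. It passed in 9 of 315 miRNAs (2.86%), 5 with the higher ratio in V254I and 4 with the higher ratio in null. miR-37-3p was higher in V254I IP, while in lysate it stood at 209 and 293 RPM in V254I and 438 and 631 RPM in null (difference of log2 differences 3.19 ± 0.80, adjusted p = 0.0343). miR-253-3p and miR-71-5p went the other way (-3.07 ± 0.62, adjusted p = 0.0120, and -2.05 ± 0.55, adjusted p = 0.0467). The 4 let-7 family guides called lower in IP did not pass this test. Their values were -2.27 ± 0.88 for let-7-5p (adjusted p = 0.123), -1.47 ± 0.88 for miR-48-5p (0.364), -3.45 ± 1.22 for miR-84-5p (0.0959) and -2.55 ± 0.72 for miR-241-5p (0.0589). The count of 9 moved widely, to 2 without null IP library 1, 90 without null IP library 2, 4 without either V254I IP library, 1 without null total library 2 or V254I total library 1, and 26 without null total library 1.

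**Figure D5:**
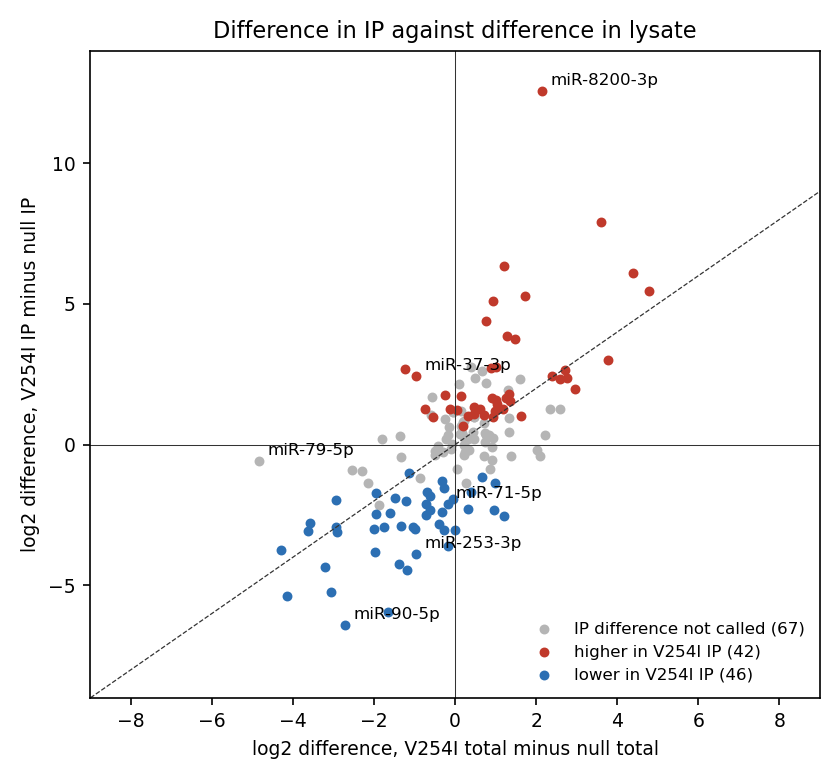
Log2 difference between V254I and null in IP against that in lysate, for the 155 miRNAs tested in both with a mean of at least 10 RPM in V254I IP, null IP or WT IP, coloured by the call in IP. The dashed line marks equal differences; miR-8200-3p lies far above it, and miR-79-5p lies near 0 in IP and at -4.84 in lysate.

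V254I IP and WT IP share the same background, and the test of the difference between them is their direct comparison. It called 0 of 269 miRNAs (0%) by edgeR and 0 by DESeq2, with 8 at an unadjusted p under 0.05, which does not show that the precipitates are alike. Set against null IP, the WT values of miRNAs named above were 2.42 ± 0.31 for miR-64-5p, 6.55 ± 1.22 for miR-788-3p, -2.86 ± 0.39 for miR-253-3p and -5.18 ± 0.78 for miR-90-5p, beside 2.42 ± 0.31, 6.34 ± 1.21, -3.89 ± 0.41 and -6.42 ± 0.83 for V254I.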

How the data were processed

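Small RNA libraries (NEXTflex kit, NextSeq500, per the labels' protocols) came from lysates and ALG-1 precipitates. The authors deposited raw read counts per mature miRNA and precursor. Per the submitters' processing notes, the software comprised Bowtie 1.2.2, FastQC 0.11.8, DESeq2 and cutadapt, without the step of each. Which genome build and miRNA annotation were used, and how reads matching several miRNAs were treated, is not given in the sources used here, and near-identical miRNAs are uncertain. A further 48 per-sample columns match no label and were not used. Of 450 rows, 13 repeats of a mature name were removed, keeping the row with the highest total.

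The quasi-likelihood F-test of edgeR 4.0.16 in R 4.3.3 (filterByExpr, TMM factors, group means, Benjamini-Hochberg adjustment) was run on the counts over 12 IP, 12 total or all 24 libraries, and hairpin ratios (mean passenger count of at least 10) with limma 3.58.1; both were tested on simulated data. The SE is the log2 change over the square root of F. DESeq2 1.42.0, other scalings, filters and left-out libraries were alternatives. Library totals in place of TMM raised V254I IP against null IP by a median of 0.44 (log2). RefSeq names matched 210 of 248 precursors. Named were the 12 higher and 12 lower miRNAs with the largest called change, no overlap and at least 50 RPM, the 5 most abundant per group, called family members, and the strongest called IP to total and hairpin differences. Members and lists were chosen with earlier results of these data known.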

Additional observations from a re-analysis of the deposited data

Results flagged for a closer look

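For 6 miRNAs of at least 50 RPM the V254I to null difference itself differed between IP and lysate, by the edgeR test of the IP to total ratio over all 24 libraries. miR-8200-3p (10.44 on the log2 scale, adjusted p = 0.000328) had no reads in null IP, so the size of its fitted value depends on the prior count, while its call held without any one of the 8 libraries of the 4 groups. miR-79-5p (4.20, adjusted p = 0.0164) was at 420 and 1330 RPM in null lysate, 30.0 and 25.7 RPM in V254I lysate, 73.8 and 26.8 RPM in null IP and 48.2 and 38.5 RPM in V254I IP. Its groups were thus apart in lysate and overlapped in IP, and its call was lost without null total library 2 (adjusted p = 0.103) or V254I total library 1 (adjusted p = 0.0549).

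miR-37-3p (3.19) lost its call without null IP library 1, V254I IP library 2, null total library 2 or V254I total library 1 (adjusted p = 0.105, 0.0534, 0.115 and 0.103). miR-253-3p (-3.07) and miR-90-5p (-3.84) lost theirs without 6 of the 8 libraries each, with adjusted p up to 0.135 and 0.198. miR-71-5p (-2.05) lost its call without any of the 8, with adjusted p from 0.0673 to 0.342. Each of the 6 kept its direction in those fits.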

How the results depend on the processing

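The count of 126 calls stayed within 1.5 times under RLE factors, library totals, DESeq2, no filter, all precursor rows, the replicate block (125) and a filter at a mean of 10 RPM chosen after seeing the data (84). It was 12 with only the compared groups (85 at an unadjusted p under 0.05) and 61 to 179 without any one library. The IP to total count of 9 was 25 with library totals, 39 with DESeq2, 22 without the filter, 0 by edgeR with only the compared groups (44 at an unadjusted p under 0.05), 19 with the replicate block and 1 to 90 without any one library. The lysate count of 35 was 59 with DESeq2, 20 with only the compared groups and 3 to 27 without any one library. Hairpin calls numbered 0 by limma with only the compared groups (17 at an unadjusted p under 0.05), and 2 to 52 without any one library. The cause was not tested. V254I and null IP libraries share replicate numbers, but their deviations correlated at 0.0913, so the block stands only here. For 42 named miRNAs under the 12 alternatives in IP, 434 values kept direction and side of the threshold, 65 lost the call (29 of them with only the compared groups) and 2 gained it. The remaining 3 turned in direction, none of them called: miR-1-3p (-0.25) was 0.21 with library totals and -0.92 to 0.054 without any one library, and miR-81-3p (0.42) was -0.40 to 0.98 without any one library. The passenger share difference (-0.154 percentage points) was -0.343 to 0.0344 without any one library. Depth limits detection at 3 reads to 0.235 RPM in V254I IP library 1 and 0.643 RPM in null IP library 2.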
